A study of Homo sapiens with 6 samples.

Results

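The clustered protocadherins are the cadherin-like cell surface proteins encoded by the alpha, beta and gamma gene clusters on the long arm of chromosome 5. Members were taken by gene symbol alone (PCDHA, PCDHAC, PCDHB, PCDHGA, PCDHGB or PCDHGC followed by a number), which gave 54 of the 59074 genes listed: 16 alpha, 16 beta and 22 gamma members. The 3 established glioblastoma lines (U251, T98G and LN-229) had been transiently transfected for 72 h with siPOOLs, complex pools of small interfering RNAs, against the long non-coding RNA HOTAIRM1 (siHOTAIRM1) or with non-target siPOOLs (siControl), and their RNA was sequenced. Each line gave 1 library per condition, 6 libraries in all, so the 3 lines served as the replicates of the knock-down and the 2 libraries of a line, which differ in siPOOL, were its only repeats. The siControl cells of each line were also transfected, no untransfected cells were among the libraries, and each line stands for a single tumor that has been kept in culture.

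Each alpha or gamma isoform joins its own variable first exon, read from its own promoter, to constant exons that all isoforms of the cluster share, whereas beta genes consist of a single exon. In neurons, the choice of a few of these promoters per cell gives cells distinct surface identities through homophilic binding of the protocadherins. The C-type members (PCDHAC1, PCDHAC2, PCDHGC3, PCDHGC4 and PCDHGC5) lie at the end of the alpha and gamma clusters and are regulated apart from the others, and the clusters are known targets of promoter methylation in tumors.

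On hg38 (GENCODE release 44), all members lie on the plus strand of chromosome 5: alpha from 140786136 to 141012347, beta from 141051374 to 141249365 and gamma from 141330514 to 141512977. PCDHA14 is annotated as a transcribed pseudogene of 1 exon. The other 15 alpha members share 3 constant exons of 59, 89 and 2721 bases, which make up 48.7 to 53.7% of their transcripts. The 22 gamma members share 3 constant exons of 59, 89 and 2029 bases, which make up 44.8 to 45.9% of theirs. Reads from these exons can be assigned to any member of the cluster, so values of single alpha or gamma members share reads and only the cluster sum is free of that assignment. The beta members share no exon.

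Clustered protocadherin promoters are known for a conserved element with a CGCT core. RefSeq promoters (GRCh38.p14, 250 bases before to 50 bases after the start) were given for 47 of the 54 members and not for PCDHA3, PCDHA13, PCDHA14, PCDHB6, PCDHB11, PCDHGA12 and PCDHGC5. The most frequent word of 8 bases around CGCT differed between clusters (both strands searched). Each word was picked from these same promoters, so its share among them is a description and no test against all promoters. ATGTCGCT was found in 9 of 13 alpha promoters and in 0.234% of all 35116 promoters. GTGGCGCT was found in 13 of 14 beta promoters (not PCDHB1) and in 1.15% of all promoters, and GCCGCTGT in 11 of 20 gamma promoters and in 1.63% of all promoters. None of these words occurred in members of another cluster, while CGCT alone occurred in 70.0% of all promoters. The windows of 30 bases shown here, 5′ to 3′ with CGCT in capitals, are for each promoter the stretch around a CGCT that had most bases in common with the windows of its cluster's word. They are those of members described in the results: the alpha members PCDHA4 and PCDHA10 and the C-type PCDHAC2, which were on in LN-229, the beta members PCDHB16 and PCDHB14, on in T98G, PCDHB5, high in LN-229 alone, and PCDHB1, on in no line, and the gamma members PCDHGC3, the most abundant member, and PCDHGB1, PCDHGA5 and PCDHGC4, which were higher after the knock-down.
PCDHA4, chr5:140806982-140807011: agccacatgatgtCGCTctttaccacaaaa
PCDHA10, chr5:140855844-140855873: agccaccggatgtCGCTgtcgtccacaaaa
PCDHAC2, chr5:140966368-140966397: agcagtccgggttCGCTgtccgccacttcg
PCDHB1, chr5:141051277-141051306: tggggagttgagtCGCTcaatgcaaatttt
PCDHB5, chr5:141135182-141135211: ggacgcctggtggCGCTgcaggctaagagt
PCDHB16, chr5:141182313-141182342: gaacgcgtggtggCGCTgcaggttaagatg
PCDHB14, chr5:141223266-141223295: agacacatggtggCGCTacaggataagacg
PCDHGB1, chr5:141350028-141350057: aacctctgggcgcCGCTgtcgaccaaaagg
PCDHGA5, chr5:141364110-141364139: ggactctgagtgtCGCTgttgaccaaagtg
PCDHGC3, chr5:141475883-141475912: ggactctgtgtgcCGCTgtcggccaatgaa
PCDHGC4, chr5:141484955-141484984: tgagcccgggagcCGCTgtctgccaatcgg
PCDHAC2 does not hold the alpha word (18 of 30 bases in common), PCDHB1 does not hold the beta word (14 of 30) and PCDHGA5 does not hold the gamma word (26 of 30), and the other 8 hold that of their cluster. CGCT lay at a median of 55 bases before the annotated start in alpha (12 windows), 61.5 bases in beta (14) and 60 bases in gamma (20). The words were found in promoters of either state: in T98G the beta word was found in 7 of 7 beta promoters that were on and in 6 of 6 that were neither on nor off, and 9 of the 12 alpha promoters that were off in T98G held the alpha word.

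The deposited values are CPM, read counts scaled to the sequencing depth. The smallest steps between values gave depths of 52.3 to 104 M reads per library, of which 31.2 to 56.6 M were on listed genes, and a level of 3 reads, the smallest taken as detectable, was 0.0289 to 0.0574 CPM. HOTAIRM1 fell from 1.99 to 0.952 CPM in LN-229, from 3.49 to 2.14 CPM in T98G and from 1.27 to 0.622 CPM in U251, which is 52.2%, 38.5% and 51.1% less (limma log2 fold change -0.54, SE 0.12, Benjamini-Hochberg adjusted p = 0.0146). The reduction was found in 3 of 3 lines, and its adjusted p by limma was 0.126 when the minimum level of tested genes was 0.1 CPM and 0.170 with median centring. Of the glial and glioma markers, VIM (254 to 1794 CPM) and CD44 (304 to 819 CPM) were high in all libraries, whereas GFAP was above 1 CPM in U251 alone and NES, SOX2 and GFAP averaged at most 0.911 CPM in T98G. S100B averaged 22.9 CPM in LN-229, 0 in T98G and 2.29 CPM in U251, and OLIG2 averaged 1.56, 0.767 and 0.0287 CPM. The leukocyte marker PTPRC (at most 0.0869 CPM) and the epithelial marker EPCAM (at most 0.247 CPM) were near 0, and the endothelial marker PECAM1 was at 0.0198 to 0.522 CPM. Of the neuron markers RBFOX3 was at most 0.00988 CPM while SNAP25 (0.524 to 8.46 CPM) and SYT1 (0.880 to 20.9 CPM) were measured in every library.

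The alpha cluster was expressed in LN-229 and close to silent in T98G and U251. A member was taken as on in a line at 1 CPM or more in both libraries and as off under 0.1 CPM in both. In LN-229, 15 of 16 alpha members were on and none was off. In T98G no alpha member was on and 14 were off, and in U251 no alpha member was on and 15 were off. The alpha members summed to 77.9 CPM (siControl) and 84.4 CPM (siHOTAIRM1) in LN-229, to 0.666 and 0.770 CPM in T98G, and to 0.325 and 0.583 CPM in U251. These sums rest on 6873 and 8776 reads in LN-229, 46 and 56 reads in T98G, and 17 and 59 reads in U251. Between siControl libraries the alpha sum of LN-229 was 117-fold that of T98G (95% counting interval 87.5 to 156) and 239-fold that of U251 (149 to 385). Between siHOTAIRM1 libraries the ratios were 110 (84.3 to 143) and 145 (112 to 187). All counting intervals given here cover counting error only. In bulk RNA, expression in fewer cells and less RNA per cell cannot be told apart.

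Per kilobase of transcript, PCDHA3 was the highest alpha member of LN-229, at 2.19 CPM per kb (siControl) and 2.46 CPM per kb (siHOTAIRM1), followed by PCDHA10 at 1.71 and 1.79 and PCDHA6 at 1.55 and 1.63. As levels, PCDHA3 was at 11.8 and 13.3 CPM in LN-229, at 0.0434 and 0.165 CPM in T98G, and at 0.0385 and 0.0494 CPM in U251. PCDHA10 was at 9.24 and 9.70 CPM in LN-229, at 0.0711 and 0.0507 CPM in T98G, and was listed at 0 and at 0.0792 CPM in U251. The LN-229 libraries lay above the other 4 for both genes, with no overlap, and the T98G and U251 values overlapped. The C-type members of the cluster followed the same division: PCDHAC1 was at 5.27 and 5.86 CPM in LN-229 and at most 0.0579 CPM in the other lines, and PCDHAC2 was at 5.28 and 5.02 CPM in LN-229, at 0.130 and 0.0863 CPM in T98G, and listed at 0 in both U251 libraries. The pseudogene PCDHA14, which does not share the constant exons, was the single alpha member that was not on in LN-229, at 0.750 and 0.180 CPM.

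Of the 13 members that were on in LN-229 and off in both other lines, 12 were alpha isoforms and the last was PCDHB6. No member was on in T98G alone or in U251 alone by the same rule. The share of all genes that met this rule in each line was not counted, so these counts describe the members only, and the alpha isoforms share reads. PCDHA4 (6.99 and 7.49 CPM), PCDHA6 (8.38 and 8.82 CPM) and PCDHA7 (6.98 and 8.54 CPM) were, with PCDHA10 and PCDHB6, the highest of the 13 in LN-229, and none of these 3 passed 0.0962 CPM in T98G or U251. Levels of 0.1 CPM correspond to few reads at these depths. When off meant under 3 reads in both libraries, 6 alpha members were off in T98G. In U251, 15 alpha members were under 3 reads in the siControl library and 10 in the siHOTAIRM1 library.

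**Figure D1:**
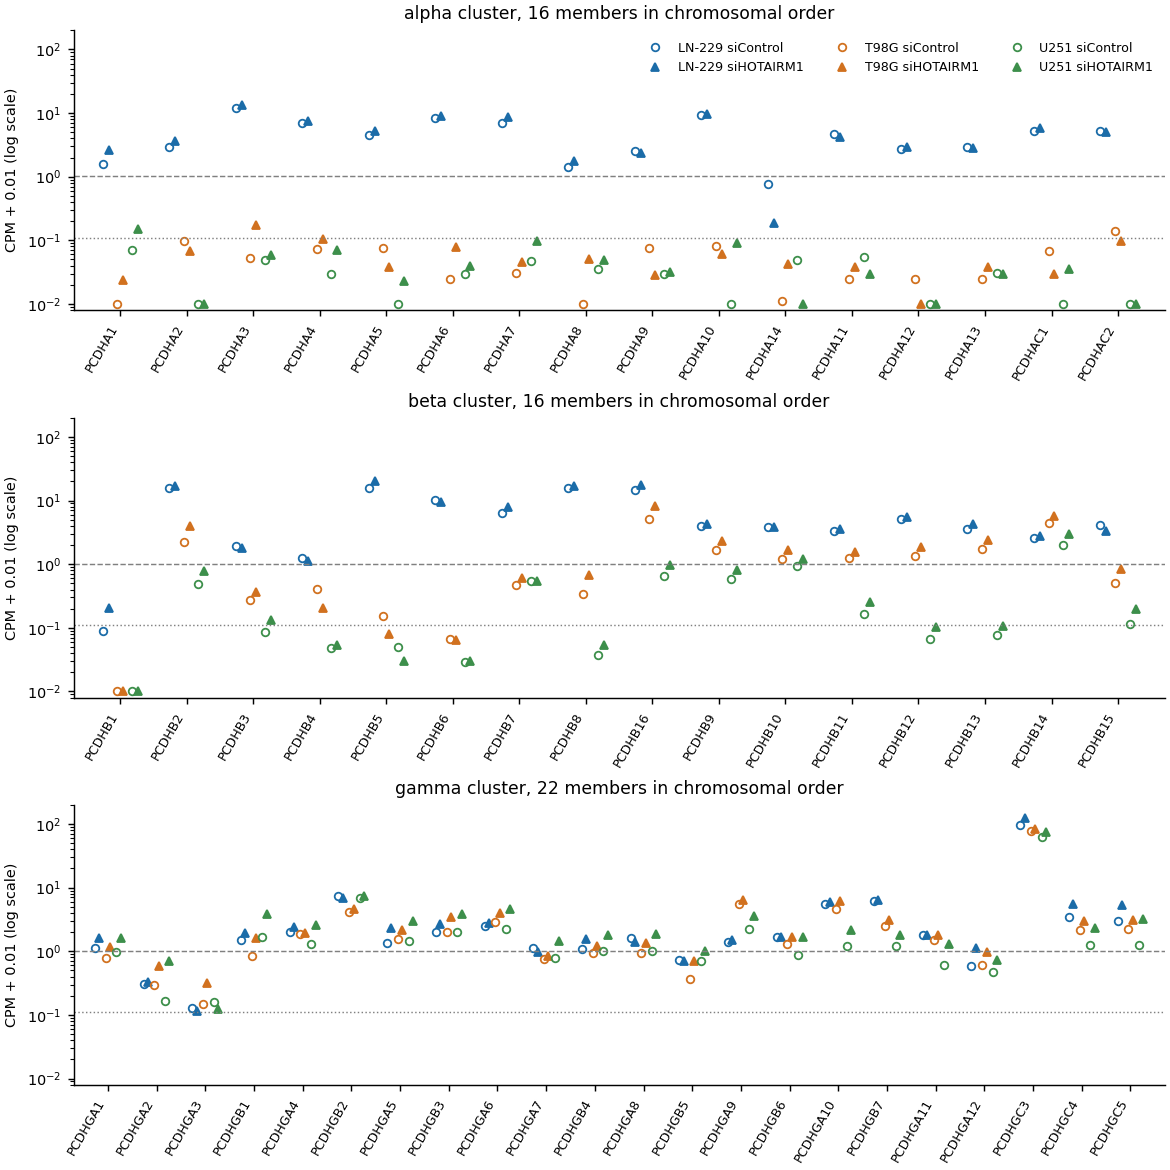
Level of each member in the 6 libraries, as CPM + 0.01 on a log scale, in chromosomal order within the alpha, beta and gamma clusters. Open circles are siControl and filled triangles siHOTAIRM1 libraries, the dashed line marks 1 CPM (on) and the dotted line 0.1 CPM (off). The LN-229 points of 15 alpha members lie above 1 CPM and the T98G and U251 points near or under 0.1 CPM, the lines fan out in beta, and they lie together in gamma.

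The beta cluster differed between the lines in steps, with 15 members on and none off in LN-229, 8 on and 2 off in T98G, and 1 on and 7 off in U251. These counts moved with the threshold: 3 were on in T98G and none in U251 at 2 CPM, 5 were on in U251 at 0.5 CPM, and with off under 3 reads 1 was off in T98G and 3 in U251. Summed beta levels were 107.8 and 120.1 CPM in LN-229, 21.0 and 30.3 CPM in T98G, and 5.72 and 8.11 CPM in U251. In siControl cells the LN-229 sum was 5.13-fold that of T98G (4.86 to 5.42) and 18.8-fold that of U251 (16.8 to 21.1), and in siHOTAIRM1 cells it was 3.96-fold (3.78 to 4.14) and 14.8-fold (13.8 to 15.9). Per kilobase, PCDHB8 (5.67 and 6.18 CPM per kb), PCDHB5 (4.56 and 6.00) and PCDHB16 (3.79 and 4.57) led in LN-229, with overlapping values, whereas PCDHB16 (1.33 and 2.11) and PCDHB14 (0.986 and 1.30) led in T98G and PCDHB14 (0.445 and 0.671) in U251.

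In T98G the beta members that were on lay mostly together. They formed a run of 7 consecutive beta genes, from PCDHB16 through PCDHB9, PCDHB10, PCDHB11, PCDHB12 and PCDHB13 to PCDHB14 (chromosome 5, 141182387 to 141227759), plus PCDHB2 (2.23 and 4.03 CPM) near the start of the cluster. PCDHB8, directly before this run, was at 15.6 and 17.0 CPM in LN-229, at 0.327 and 0.658 CPM in T98G, and at 0.0272 and 0.0439 CPM in U251. PCDHB16, the first gene of the run, was at 14.5 and 17.5 CPM in LN-229, at 5.10 and 8.09 CPM in T98G, and at 0.653 and 0.965 CPM in U251. The libraries of the 3 lines did not overlap for either gene. PCDHB5 and PCDHB6 were close to an on or off switch between LN-229 and the other lines: PCDHB5 was at 15.5 and 20.5 CPM against at most 0.145 CPM, and PCDHB6 at 10.1 and 9.50 CPM against at most 0.0579 CPM.

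PCDHB14 was the beta member that was on in all 3 lines, and its order of lines was its own. It was at 2.61 and 2.73 CPM in LN-229, at 4.35 and 5.73 CPM in T98G, and at 1.97 and 2.96 CPM in U251. The T98G libraries lay above those of both other lines, and the LN-229 values fell between the U251 values. PCDHB1, at the start of the cluster, was on in no line: it was at 0.0793 and 0.192 CPM in LN-229 and listed at 0 in the other 4 libraries. The kit does not mark the strand, and the spans of genes annotated on the minus strand, introns included, overlap exons of 15 of the 16 beta members, 10 alpha members and 1 gamma member. Reads of such antisense genes that fall on these exons cannot be told apart from those of the member. Whether exons of the antisense genes lie there was not compared.

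The gamma cluster was expressed in all 3 lines at similar sums: 142 and 178 CPM in LN-229, 116 and 134 CPM in T98G, and 90.7 and 126 CPM in U251. The number of members on was 17, 13 and 12, no gamma member was off in any line, and 11 members were on in all 3 (PCDHGA4, PCDHGB2, PCDHGA5, PCDHGB3, PCDHGA6, PCDHGA9, PCDHGA10, PCDHGB7 and the 3 C-type members). The largest ratio of gamma sums between lines in siControl cells was 1.57 (LN-229 over U251, 1.52 to 1.62). In U251, 8 of the 54 members passed 1 CPM in 1 library only, and the counts of gamma members on in LN-229 and U251 changed with the threshold, to 7 and 5 at 2 CPM and, in U251, to 19 at 0.5 CPM.

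PCDHGC3 supplied most of the gamma signal in every library, with 60.1 to 69.1% of the sum. It was at 96.0 and 123 CPM in LN-229, at 77.7 and 83.9 CPM in T98G, and at 61.4 and 76.0 CPM in U251. Per kilobase its means were 23.0, 17.0 and 14.4 CPM per kb, and the next gamma member was at most at 1.49 (PCDHGB2, LN-229 and U251) and 1.26 (PCDHGA9, T98G). The other gamma members ranged from 0.104 to 7.29 CPM over the libraries.

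Some gamma members had a line of their own. PCDHGA9 was at 1.41 and 1.5 CPM in LN-229, at 5.52 and 6.48 CPM in T98G, and at 2.24 and 3.63 CPM in U251, so that T98G was highest with no overlap. PCDHGA10 was at 5.59 and 6.03 CPM in LN-229, at 4.65 and 6.24 CPM in T98G, and at 1.21 and 2.18 CPM in U251, and the LN-229 and T98G values overlapped. PCDHGB7 was at 6.07 and 6.40 CPM in LN-229, at 2.45 and 3.14 CPM in T98G, and at 1.18 and 1.79 CPM in U251, 3 ranges that did not overlap. PCDHGB2 was at 7.26 and 6.82 CPM in LN-229, at 4.09 and 4.58 CPM in T98G, and at 6.87 and 7.29 CPM in U251, lowest in T98G.

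**Figure D2:**
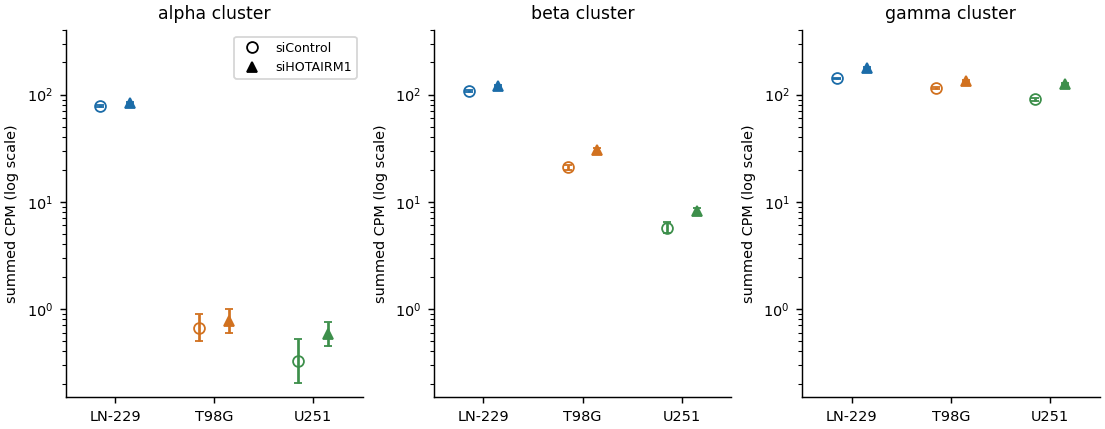
Summed CPM of the 16 alpha, 16 beta and 22 gamma members in each library, on a log scale. Open circles are siControl, filled triangles are siHOTAIRM1 and bars are 95% counting intervals. The alpha sum spans 0.325 to 84.4 CPM, the beta sum 5.72 to 120.1 CPM and the gamma sum 90.7 to 178 CPM.

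Outside the alpha cluster, the 2 libraries of a line resembled each other more closely than libraries of different lines did. Across the 54 members, Spearman's rho of the levels was 0.965 to 0.978 for the 3 pairs of libraries of the same line and -0.181 to 0.860 for the 12 pairs of different lines. Within the beta cluster the ranges were 0.938 to 0.985 and 0.0353 to 0.800, and within the gamma cluster 0.944 to 0.986 and 0.689 to 0.864. In beta, LN-229 stood apart: rho was 0.141 to 0.235 between LN-229 and T98G and 0.0353 to 0.0559 between LN-229 and U251, against 0.753 to 0.800 between T98G and U251. Within the alpha cluster rho was 0.976 for the LN-229 pair, 0.317 for the T98G pair and 0.430 for the U251 pair, and -0.666 to 0.645 for pairs of different lines, so the T98G and U251 pairs lay within the range of different lines. Nearly all alpha members were under 0.1 CPM in T98G and U251. These correlations are across genes of 1 locus that share reads and are descriptions.

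**Figure D3:**
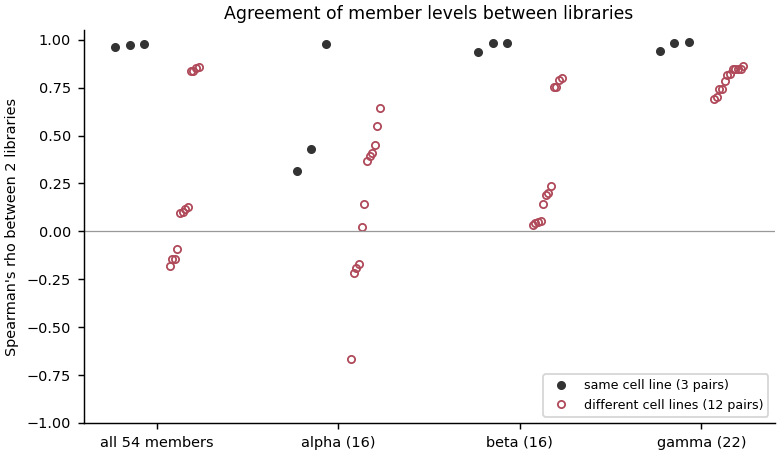
Spearman's rho of member levels between 2 libraries, for all 54 members and for each cluster. Filled points are the 3 pairs of the same cell line, open points the 12 pairs of different lines. Same-line pairs lie above 0.93 for all members, beta and gamma, whereas different-line pairs spread from -0.181 to 0.860 for all members.

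Differences between lines were tested with limma on log2(CPM + 1), with the condition as a term and Benjamini-Hochberg adjustment over the 14294 genes whose level averaged 1 CPM or more across the 6 libraries. Of the 54 members 40 passed this minimum: 10 alpha, 13 beta and 17 gamma. The 10 alpha members and PCDHB5, PCDHB6, PCDHB7, PCDHB8 and PCDHB15 passed it through LN-229 alone and therefore had to differ, so their count supports nothing. Against T98G, 27 members were higher and 2 lower in LN-229 (30.8% and 24.1% of all genes tested). Against U251, 28 were higher and 2 lower in LN-229 (23.9% and 36.7%). Between T98G and U251, 14 were higher and 2 lower in T98G (23.1% and 41.0%), of which 9 of the higher ones were beta and 5 gamma. All of these beta members but PCDHB14 were under 1 CPM in both U251 libraries. They passed the minimum through the other lines, so their count against U251, in T98G or in LN-229, supports nothing either. Without the T98G siHOTAIRM1 library, 9 members were higher in T98G than in U251, and without the LN-229 siHOTAIRM1 library none was lower in LN-229 than in U251. The lines differed in a large share of all genes, and since the labels do not say whether the libraries come from separate cultures, these p-values measure only the spread between these libraries.

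The 17 gamma members tested averaged 0.957 CPM or more in each line, and 6 of them differed between LN-229 and T98G, 8 between LN-229 and U251 and 7 between T98G and U251. Of all genes, 30.8% were higher and 24.1% lower, 23.9% higher and 36.7% lower, and 23.1% higher and 41.0% lower in these contrasts. The gamma members thus did not differ more often than genes in general. In the fit described, LN-229 was above T98G for PCDHGB2, PCDHGB7, PCDHGC3, PCDHGC4 and PCDHGC5 and below it for PCDHGA9 (log2 difference -1.51, SE 0.17, limma, BH-adjusted p = 1.2e-09). PCDHGC5 did not pass with no filter (limma adjusted p 0.14), median centring (0.0618), libraries scaled to their listed genes (0.0531) or the condition left out (0.253). PCDHGC4 did not pass with the condition left out (limma adjusted p 0.0778). The PCDHGB2 difference ranged from 0.50 to 0.69 over the 12 other settings run. For PCDHGB2, PCDHGC4 and PCDHGC5 the call was also lost in some of the settings that left a library out. PCDHGC3 was higher in LN-229 than in T98G by 0.42 (SE 0.18, limma, BH-adjusted p = 0.0481, not passed in 10 of the 12 other settings run) and than in U251 by 0.66 (SE 0.18, adjusted p = 0.00209), and its difference of T98G minus U251 was 0.24 (SE 0.18, adjusted p = 0.252, or 0.00436 with libraries scaled to their listed genes and 0.0077 with median centring). PCDHGB1 was lower in T98G than in U251 (log2 difference -0.71, SE 0.16, limma, BH-adjusted p = 0.000255), but its adjusted p by limma was 0.0521 with libraries scaled to their listed genes, 0.0572 with no filter and 0.0534 with the condition left out. PCDHB14 was the beta member that was lower in LN-229 than in T98G (log2 difference -0.71, SE 0.17, limma, BH-adjusted p = 0.000516, or 0.0659 without LN-229 siHOTAIRM1 and 0.0543 without T98G siHOTAIRM1), and its difference of LN-229 minus U251 was 0.10 (SE 0.17, adjusted p = 0.637). PCDHB16 and PCDHB2 were higher in T98G than in U251 by 2.05 (SE 0.17) and 1.31 (SE 0.17), with limma BH-adjusted p = 1.73e-12 and 4.88e-08. In U251 they were under 1 CPM in both libraries (0.653 and 0.965 CPM, and 0.478 and 0.779 CPM). They passed the minimum through the other lines and were named for their high level in T98G, so these p-values support nothing. PCDHGA9 and PCDHB14 were also named for a high level in T98G, so their p-values for LN-229 against T98G support nothing either.

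After HOTAIRM1 knock-down the summed gamma level was higher in each line, by 0.32 in LN-229 (log2, 95% counting interval 0.29 to 0.36), 0.21 in T98G (0.17 to 0.26) and 0.48 in U251 (0.43 to 0.53), or 1.25-, 1.16- and 1.39-fold. The median change of all genes of the line was 0.01, -0.22 and -0.04. Without PCDHGC3, the gamma sum changed by 0.25, 0.41 and 0.78. The beta sum changed by 0.16 (0.12 to 0.19) in LN-229, 0.53 (0.44 to 0.63) in T98G and 0.50 (0.31 to 0.69) in U251, and the alpha sum by 0.12 (0.07 to 0.16) in LN-229. The alpha changes in T98G, 0.21 (-0.35 to 0.77), and in U251, 0.84 (0.06 to 1.62), rest on the few reads given above. The listed genes held 47.0 and 48.5% of the CPM scale in LN-229, 50.2 and 42.9% in T98G, and 67.2 and 55.9% in U251. With each library scaled to its listed genes the gamma change was 0.28, 0.44 and 0.74, so its direction was the same in all 3 lines under either scaling.

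Among the gamma members, the change after knock-down was above 0 for 17 of 22 in LN-229, 22 of 22 in T98G and 21 of 22 in U251, on the scale of log2(CPM + 0.1). As many members, 17, 22 and 21, lay above the median change of all genes of the line. The counting interval lay wholly above 0 for 9, 16 and 19 members and wholly below 0 for none. The share of all genes with such an interval was not counted, so the interval counts describe these members only. The median member change was 0.15, 0.44 and 0.83. The smallest and largest changes were -0.23 (PCDHGA8) and 0.88 (PCDHGA12) in LN-229, 0.06 (PCDHGA4) and 0.90 (PCDHGB1) in T98G, and -0.21 (PCDHGA3) and 1.64 (PCDHGA2, from 0.155 to 0.695 CPM) in U251. PCDHGB2 gave -0.09 (-0.24 to 0.06), 0.16 (-0.07 to 0.38) and 0.08 (-0.10 to 0.26). There was 1 library per line and condition, so none of these changes was tested, and gamma members share reads.

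**Figure D4:**
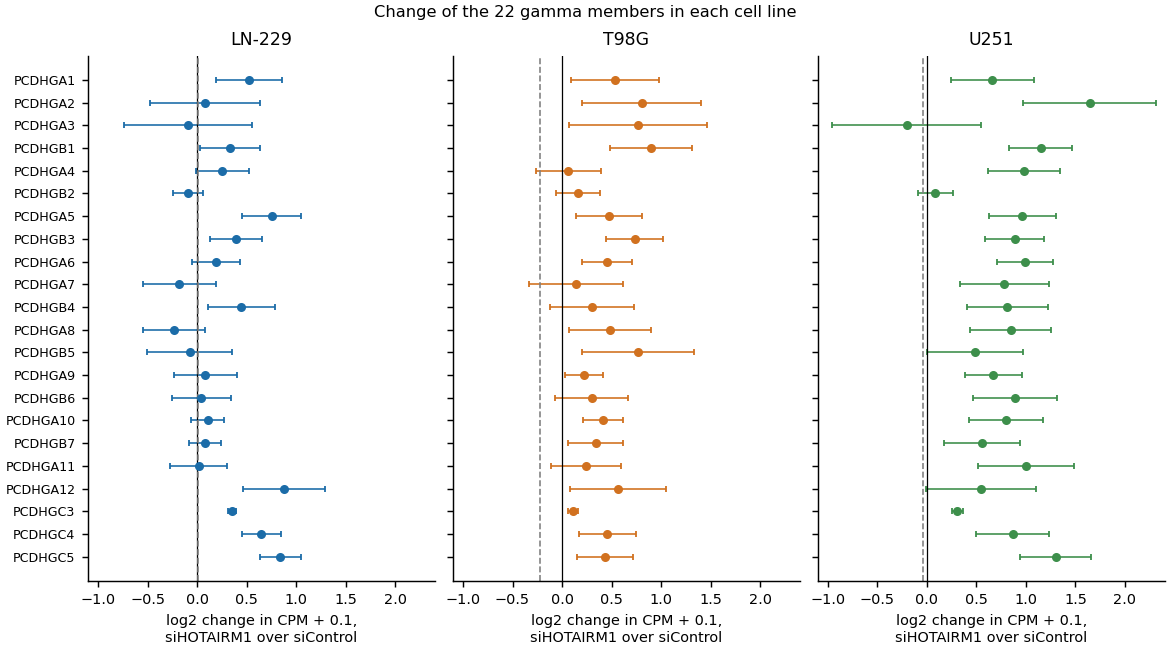
Change of the 22 gamma members in each cell line as log2(CPM + 0.1), siHOTAIRM1 over siControl, with 95% counting intervals. The solid line marks 0 and the dashed line the median change of all genes of that line. Points above 0 number 17 for LN-229, 22 for T98G and 21 for U251.

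Changes of at least 1.5-fold were counted among genes that averaged 0.5 CPM or more in the line. In LN-229, 5 of 50 members were that much higher (PCDHA1, PCDHGA5, PCDHGA12, PCDHGC4 and PCDHGC5), against 2.05% of all genes. In T98G it was 6 of 30 (PCDHB2, PCDHB15, PCDHB16, PCDHGB1, PCDHGB3 and PCDHGB5), against 1.25%. In U251 it was 16 of 26, 15 of them gamma members and the other PCDHB2, against 8.5%. With a pseudocount of 1 the counts were 1, 1 and 6, and in T98G, where the median of all genes was -0.22, 19 members were at least 1.5-fold higher relative to that median. The share of all genes was not counted under either setting, so the percentages above do not apply to these counts. No member was at least 1.5-fold lower in any line, where 1.56%, 7.73% and 11.6% of all genes were. The U251 libraries also differed most in depth (52.3 M reads for siControl and 101 M for siHOTAIRM1), and the part of depth in the U251 count was not tested. PCDHA14, below the minimum, went from 0.750 to 0.180 CPM in LN-229.

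Over the 3 lines, limma with the line as a block (log2(CPM + 1), Benjamini-Hochberg adjustment over 14294 genes) found 5 members higher and none lower after knock-down, all 5 in the gamma cluster. Of all genes tested, 0.413% were higher and 1.59% lower at this adjusted threshold. At an unadjusted p under 0.05 by limma there were 12 members, all of them higher, and 2622 of the 14294 genes in either direction. The log2 fold change was above 0 for 37 of the 40 members tested, with a median of 0.19, against 36.2% of all genes and a median of -0.07. The 15 members that passed the minimum through LN-229 alone were under 1 CPM in every T98G and U251 library, where log2(CPM + 1) allows little change, so their value rests mostly on LN-229. Of the other 25, the 8 beta and 17 gamma members were all above 0 (median 0.27).

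PCDHGC5 (first exon chr5:141489081-141491700), a C-type isoform, was at 2.94 and 5.35 CPM in LN-229, at 2.23 and 3.05 CPM in T98G, and at 1.24 and 3.2 CPM in U251, siControl before siHOTAIRM1. Its log2 fold change was 0.64 (SE 0.14, limma, BH-adjusted p = 0.00919). PCDHGC4 (first exon chr5:141485030-141487615), the C-type isoform next to it, was at 3.49 and 5.54 CPM, 2.18 and 3.03 CPM, and 1.24 and 2.34 CPM in the same order of lines, with a log2 fold change of 0.49 (SE 0.13, limma, BH-adjusted p = 0.0455). For both genes siHOTAIRM1 was above siControl in 3 of 3 lines. All siHOTAIRM1 levels lay above all siControl levels for PCDHGC5, and the conditions overlapped for PCDHGC4. The remaining gamma C-type isoform, PCDHGC3, had a log2 fold change of 0.26 and did not pass (SE 0.15, limma, BH-adjusted p = 0.362).

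PCDHGB1 was at 1.48 and 1.89 CPM in LN-229, at 0.823 and 1.63 CPM in T98G, and at 1.66 and 3.82 CPM in U251 (log2 fold change 0.53, SE 0.13, limma, BH-adjusted p = 0.0243). PCDHGA5 was at 1.34 and 2.32 CPM, 1.52 and 2.16 CPM, and 1.46 and 2.95 CPM (0.50, SE 0.13, limma, BH-adjusted p = 0.0296). PCDHGB3 was at 1.99 and 2.64 CPM, 2.0 and 3.4 CPM, and 2.01 and 3.80 CPM (0.50, SE 0.13, limma, BH-adjusted p = 0.0392). For PCDHGA5 and PCDHGB3 all 3 siHOTAIRM1 libraries lay above all 3 siControl libraries, and for PCDHGB1 the ranges overlapped. The 5 members are not separate pieces of evidence, since 45.4 to 45.9% of each transcript is the constant region they share.

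These calls were lost in most other settings. With all genes kept, with a minimum of 0.1 CPM, without the block, with a paired t-statistic, with median centring, with libraries scaled to their listed genes and without T98G or without U251, none of the 5 passed the adjusted threshold, and without LN-229 PCDHGB1 alone passed. With a pseudocount of 0.1, 5 members passed. The direction of all 5 was the same in each of these settings: PCDHGC5 ranged from 0.51 to 0.86 and PCDHGC4 from 0.44 to 0.67.

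**Figure D5:**
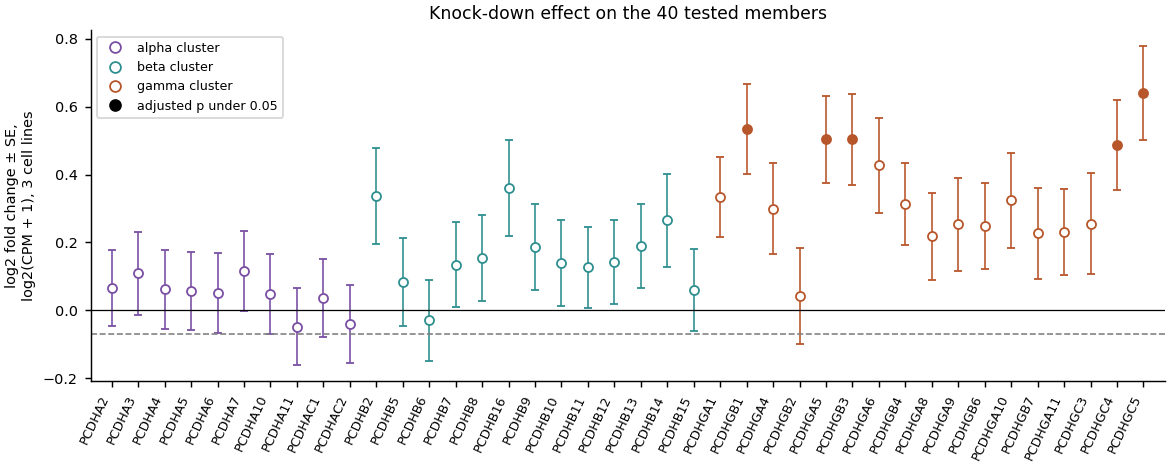
Log2 fold change after knock-down with its SE for the 40 members tested, in chromosomal order (limma on log2(CPM + 1), 3 cell lines as replicates). Filled points have a Benjamini-Hochberg adjusted p under 0.05 over all genes, and the dashed line is the median of all genes, -0.07. All 17 gamma points lie above 0, and 5 of them are filled.

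The alpha and beta members did not pass in this test. The largest beta changes were those of PCDHB16 (0.36, SE 0.14, limma, BH-adjusted p = 0.166) and PCDHB2 (0.34, SE 0.14, adjusted p = 0.196), which in T98G changed by 0.66 (0.47 to 0.84) and 0.82 (0.55 to 1.10) on the log2(CPM + 0.1) scale. PCDHB14 changed by 0.06 (-0.18 to 0.31) in LN-229, 0.39 (0.18 to 0.60) in T98G and 0.57 (0.26 to 0.88) in U251 (limma 0.27, SE 0.14, BH-adjusted p = 0.295). The 10 alpha members tested lay between -0.05 and 0.12, a range that says little, since they were near 0 in T98G and U251 and their change there was held near 0 by the scale.

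Genes known to act on or with the clustered protocadherins were compared by lists. None of the 18 regulators of the clusters that were tested passed (median log2 fold change -0.02), among them CTCF, the zinc finger protein that binds the promoters and enhancers of the clusters and loops them together, and cohesin, which holds the loops. As levels, CTCF was at 36.1 and 36.3 CPM in LN-229, at 27.0 and 25.1 CPM in T98G, and at 38.8 and 41.4 CPM in U251. SMCHD1, a repressor of the clusters, was highest in U251 (123 and 114 CPM), as was the DNA methyltransferase DNMT3A (18.0 and 31.5 CPM). The DNA methyltransferases DNMT1 (108 and 110 CPM) and DNMT3B (7.06 and 7.58 CPM) were highest in LN-229. A link of these levels to those of the clusters was not tested. The cohesin subunit SMC1A had the largest change of the list, 0.51 (SE 0.15, limma, BH-adjusted p = 0.0702), and was chosen after its value was seen. RAD21 (112 to 139 CPM) and STAG2 (76.0 to 159 CPM), the most abundant of the list, changed by -0.10 and -0.23 and did not pass.

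None of the 7 genes of protocadherin processing passed, with ADAM10, which sheds the extracellular part, at 98.6 to 151 CPM and a change of -0.11, and APH1A, a subunit of the gamma-secretase that cleaves the remainder, at 40.1 to 101 CPM and a change of -0.31 (median of the list -0.11). None of the 18 cytoplasmic and membrane partners tested passed (median -0.02), with NCKAP1 (79.1 to 156 CPM), a subunit of the WAVE complex that protocadherins can recruit, at 0.23 and MARCKS (46.3 to 313 CPM) at -0.02. None of the 10 genes tested that flank or lie between the clusters on chromosome 5 passed (median -0.10), with TAF7, which lies between the beta and gamma clusters, at 64.5 and 63.1 CPM in LN-229, 48.2 and 41.5 CPM in T98G, and 90.1 and 65.7 CPM in U251. DIAPH1, beyond the gamma cluster (48.9 to 96.5 CPM), and HARS, before the alpha cluster (50.3 to 84.2 CPM), changed by -0.19 and -0.07 and did not pass. The 10 neighbours tested, which had passed the minimum of 1 CPM, were expressed in all 3 lines, also where the alpha cluster was near 0. The neighbours under the minimum were low: DND1 was at 0.421 to 0.669 CPM and SLC25A2 at 0.0191 to 0.839 CPM over the libraries.

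Of the non-clustered protocadherins, whose genes lie outside the 3 clusters, 7 of 12 were tested and none passed (median 0.05). They too differed between lines: PCDH9 was at 41.3 and 51.4 CPM in LN-229, at 0.319 and 0.371 CPM in T98G, and at 55.6 and 47.8 CPM in U251, and PCDH18 was at 3.26 and 3.19, 82.5 and 133, and 14.4 and 12.1 CPM. Of the 5 pseudogenes of the clusters, PCDHB17P alone was tested. It was at 3.93 and 4.55 CPM in LN-229, at 0.131 and 0.251 CPM in T98G, and listed at 0 in U251, which is the order of lines of the alpha and beta sums.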

How the data were processed

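The authors prepared RNA-seq libraries with a TruSeq kit that does not mark the strand, sequenced them on an Illumina HiSeq, trimmed both ends of the reads, aligned these in Partek Flow to hg38 with STAR 2.4.1d and unaligned reads with Bowtie 2 2.2.5, and quantified Ensembl release 84 with an expectation-maximization algorithm that splits reads between transcripts. The authors deposited CPM values, each with 0.0001 added, which was subtracted here. Sample titles write LNT229 for the line given as LN-229. Between 72.0 and 77.0% of values were whole reads (within 0.02 reads), so no count test was used.

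The members and gene lists were chosen with earlier results of these data known. Genes that averaged 1 CPM or more were tested with limma 3.58.1 (R 4.3.3) on log2(CPM + 1) with a mean-variance trend, the cell line as block, Benjamini-Hochberg adjustment over 14294 genes and a threshold of 0.05; the fit was tested on simulated data. Cell lines pair the libraries: deviations from the condition means correlated at 0.948 to 0.967 within lines and at -0.50 to -0.47 between lines. Changes within a line use log2(CPM + 0.1) with 95% counting intervals from the reads and have no test. On was set at 1 CPM and off under 0.1 CPM in both libraries of a line. Named members were those past the threshold, the 3 highest of each cluster in each line by CPM, the C-type members and up to 5 on in 1 line and off in the others; of lists in which none passed, the 2 most abundant were named. Others that are named to describe an extreme, a neighbour or a threshold were chosen after their values were seen. Lengths come from GENCODE release 44, later than the authors' annotation. WAPL was not matched by symbol. Python 3.11.15, numpy 2.4.6, pandas 2.3.3, scipy 1.17.1, statsmodels 0.14.6 and matplotlib 3.10.9 were used. Alternatives were other pseudocounts, filters, centrings and thresholds, the fit without the block and fits without a line or library.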

Additional observations from a re-analysis of the deposited data

How the results depend on the processing

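Alternatives of the knock-down test gave 0 higher members without the block by cell line, with a paired t-statistic, with no filter, with a filter at 0.1 CPM, with median centring and with libraries scaled to the sum of the listed genes (a scaling chosen after seeing the data), against 5, and 0 to 1 without one cell line, the 1 being without LN-229. At an unadjusted p under 0.05, 0 members without the block, 6 with the paired t-statistic, 10 with no filter and 8 to 16 without one line differed. Of all genes, 29, 896, 2479 and 1083 to 2870 did so in the same settings, out of 14294 tested or, with no filter, 36026. Over all genes, 59 were higher and 227 lower by limma with Benjamini-Hochberg adjustment; the alternatives gave 0 and 0 (no block, paired t-statistic and no filter), 149 and 534 (pseudocount 0.1), 3 and 16 (filter at 0.1 CPM), 15 and 26 (median centring), 10 and 15 (scaled to the listed genes), and 0 to 40 and 0 to 239 without one line. HOTAIRM1 was lower in every setting run and passed with a pseudocount of 0.1 and without U251, but its adjusted p rose to 0.999998 at -0.54 (no block), 0.637 at -0.54 (paired t-statistic), 0.677 at -0.54 (no filter), 0.126 at -0.54 (filter at 0.1 CPM), 0.170 at -0.46 (median centring) and 0.204 at -0.56 (scaled to the listed genes), and without one line its change ranged from -0.56 to -0.50 (limma adjusted p 0.00988 to 0.435). The signs of 9 members tested, all with small changes, turned in some setting, 5 of them among the named members: PCDHAC2 to 0.0391 and PCDHB6 to 0.0491 with median centring, PCDHB5 to -0.117 with a pseudocount of 0.1, and, without one line, PCDHAC1 (-0.00803 to 0.0831) and PCDHB5 (-0.0629 to 0.175) without LN-229 and PCDHGB2 (-0.00146 to 0.103) without T98G. The other 4 were PCDHA2, PCDHA5, PCDHA11 and PCDHB15, and none of the 9 passed in any setting.

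Between lines, the members higher in LN-229 were 23 to 34 against T98G and 27 to 36 against U251 in all settings. The 2 members lower in LN-229 than in U251 became 1 with no filter, a filter at 0.1 CPM, median centring or the condition left out, and 0 with libraries scaled to the listed genes; the 2 lower in T98G than in U251 became 1 with no filter or the condition left out and 0 with that scaling. Without 1 library each, a choice made after seeing the data, lower members numbered 1 to 2 (LN-229 against T98G), 0 to 3 (LN-229 against U251) and 1 to 3 (T98G against U251), and the members higher in T98G than in U251 were 9 to 14, the 9 without T98G siHOTAIRM1.

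On or off counts moved with the threshold. With off under 3 reads, 6 alpha and 1 beta members were off in T98G and 3 beta members in U251. Of the alpha members in U251, 10 were under 3 reads in the siHOTAIRM1 library and 15 in the siControl library. At 2 CPM, 3 beta members were on in T98G and 0 in U251, and 7 gamma members in LN-229 and 5 in U251; at 0.5 CPM, 5 beta and 19 gamma members were on in U251, and 2 beta members at 0.25 CPM per kb, a setting chosen after seeing the data. Members higher by 2-fold numbered 0 (LN-229), 0 (T98G) and 2 (U251), and by 1.5-fold with a pseudocount of 1 they numbered 1, 1 and 6. T98G had 19 when the median change of all genes was subtracted. The share of all genes was not counted in these settings. With the median change of all genes subtracted, the summed change in T98G was 0.75 for beta and 0.43 for gamma. Without PCDHGC3 the gamma sum changed by 0.25, 0.41 and 0.78 in LN-229, T98G and U251. Scaled to the listed genes, the changes were 0.0709 (alpha) in LN-229, 0.11, 0.76 and 0.77 (beta) and 0.28, 0.44 and 0.74 (gamma). Which of these differences come from the samples and which from the scaling was not tested. The 3 reads taken as detectable limit the alpha members in T98G and U251, and 1 library per line and condition limits every change within a line.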
